A study of Homo sapiens with 8 samples.

Results

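PRMT5 was inhibited for 6 days in CHLA-20, an established human neuroblastoma cell line, and the messenger RNA of the cells was compared with that of vehicle-treated cells. The comparison holds the 4 CHLA-20 libraries among the 8 of the series, 2 treated with the vehicle DMSO and 2 with the inhibitor, and it covers every gene that the libraries count. CHLA-20 cells were grown in IMEM with 10% fetal bovine serum, streptomycin and a supplement of insulin, transferrin and selenium. The samples call the inhibitor JSK591, while the treatment description names GSK591, given at its IC50 with no concentration, and whether the names mean one compound is not stated. The other 4 libraries, 2 with DMSO and 2 with the inhibitor, are of NGP, a neuroblastoma line grown in RPMI1640, so lines and media cannot be told apart. Whether both lines received the same concentration is not stated, so dose and line cannot be told apart either. No genotype, clone or engineered allele is given for either line. The sources do not say if the replicates come from separate cultures, so the p-values reflect the spread of these libraries alone, and that spread may be technical.

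PRMT5 is the main enzyme of the cell that attaches a symmetric pair of methyl groups to arginine. It acts in a complex with WDR77, and adaptor proteins bring it its substrates, among them CLNS1A for the Sm proteins of the spliceosome and COPRS for histones. Methylated Sm proteins are handed to the SMN complex, which assembles them on small nuclear RNAs, and methylated histone tails are tied to gene repression. Neuroblastoma arises from the sympathetic lineage, and its adrenergic cells make catecholamines under a circuit of transcription factors that includes HAND2 and GATA3.

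Each CHLA-20 library held 34067894 to 34914902 counts assigned to genes, of 58721 genes listed, and a count of 0 allows up to 0.0881 CPM (3 counts). Levels are given below as CPM, counts scaled to a common library total, in the order DMSO replicates 1 and 2, then JSK591 replicates 1 and 2, and CPM is not corrected for gene length. Changes are log2 values of JSK591 against DMSO with their SE, and a gene passed, and is said to have risen or fallen, where edgeR's quasi-likelihood test gave a Benjamini-Hochberg adjusted p under 0.05. The sympathetic marker list fitted the label: its 12 members summed to 4769 and 4961 CPM with DMSO and to 4208 and 4082 with JSK591, and 1 of them, CHGA, was at 0. CHGA lies in a run of 11 neighbouring protein-coding genes on chromosome 14, ending at PRIMA1, all of which had under 10 counts over the 8 libraries, against 20.9% of protein-coding genes at large. The same held for 146 of 155 protein-coding genes of a stretch of chromosome 6 around the MHC and for 8 of 15 around MAPT on chromosome 17, so zeros of genes there say nothing about their expression. Blood cell markers summed to at most 0.458 CPM, epithelial and melanocyte markers to 12.03 to 14.05 CPM, and Schwann, fibroblast and endothelial markers to 494 and 497 CPM with DMSO and 431 and 434 with JSK591. In bulk RNA, fewer cells of a type and less RNA per cell cannot be told apart.

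Of 19395 genes tested, 3285 rose (16.9%) and 4354 fell (22.4%), 39.4% in all, and the median gene stood at -0.02. Among the 13953 protein-coding genes tested 19.8% rose and 28.4% fell. In the highest of 5 classes of level of these genes 27.5% rose and 36.2% fell, so shares of all genes are a low baseline for abundant ones. The excess of falls depended on the processing. With the CHLA-20 libraries alone 3743 genes rose and 3964 fell. With the GC trend described below removed the order reversed, as 4088 rose and 3767 fell. Changes were mostly small: 323 genes rose at least 2-fold (1.67%) and 440 fell at least 2-fold (2.27%). Both JSK591 libraries lay above both DMSO libraries in 30.6% of genes and below both in 36.0%. Most genes named below were chosen among passing genes separated in this way, so their separation is a description and no support. The order of replicates within a group carries no meaning.

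The largest change among genes with a mean of at least 100 CPM over the 4 CHLA-20 libraries was that of TNC, a matrix glycoprotein, which rose from 179 and 176 to 423 and 421 CPM (1.25 ± 0.04, adjusted p = 5.13e-36 by edgeR). CHRNA3, a subunit of the nicotinic acetylcholine receptor of sympathetic ganglia, rose from 73.4 and 71.3 to 173 and 170.1 CPM (1.25 ± 0.04), and SYT4, a synaptotagmin of secretory vesicles, rose from 320.4 and 321 to 652 and 682 CPM (1.06 ± 0.04). In each of these genes both treated libraries stood at about the same level, more than 2-fold above the controls. The transferrin receptor gene TFRC, which takes up iron, rose from 116 and 115 to 219 and 214 CPM (0.90 ± 0.04), and the splicing factor gene HNRNPM rose from 132 and 138 to 267 and 259 CPM (0.96 ± 0.04). Among the abundant genes that fell, COL6A1, a chain of collagen VI, went from 211 and 219 to 101 and 94.9 CPM (-1.13 ± 0.04), and H1F0, the linker histone H1.0 of resting cells, went from 333 and 336 to 164 and 164 CPM (-1.03 ± 0.04). ACADVL, which starts the mitochondrial oxidation of very long fatty acids, fell from 213 and 225 to 111 and 112 CPM (-0.97 ± 0.04). ARHGEF2, a microtubule-bound activator of RhoA, fell from 144 and 136 to 74.4 and 71.9 CPM (-0.94 ± 0.04), and TXNIP, which restrains glucose uptake, fell from 172 and 172 to 95.2 and 97.4 CPM (-0.83 ± 0.04).

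Among less abundant genes, LIX1 rose from 2.04 and 2.01 to 6.23 and 5.89 CPM (1.58 ± 0.16) and ISLR2, a neuronal membrane protein that works with RET and TrkA signalling, rose from 2.01 and 1.63 to 5.80 and 4.58 CPM (1.51 ± 0.16). The receptor phosphatase gene PTPRB rose from 6.24 and 4.68 to 16.2 and 14.3 CPM (1.48 ± 0.11), and ADCYAP1, which encodes the neuropeptide PACAP, rose from 2.96 and 3.79 to 9.12 and 8.83 CPM (1.41 ± 0.14). The long non-coding RNA OLMALINC fell from 107 and 101 to 36.4 and 36.3 CPM (-1.52 ± 0.05). The adaptor gene GRB14, which binds the insulin receptor, fell from 5.44 and 4.83 to 1.82 and 1.72 CPM (-1.53 ± 0.15), DOCK6, an activator of RAC1 and CDC42, fell from 25.8 and 26.6 to 9.32 and 8.74 CPM (-1.54 ± 0.08), and the potassium channel subunit gene KCNG1 fell from 6.54 and 6.52 to 2.19 and 2.38 CPM (-1.51 ± 0.13). TOMM5 (1.46 ± 0.16) and YPEL1 (-1.46 ± 0.16) were also among the largest changes, but 74.7% and 56.5% of their exonic bases are shared with other genes, and with an unknown strand setting their counts are less certain.

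**Figure D1:**
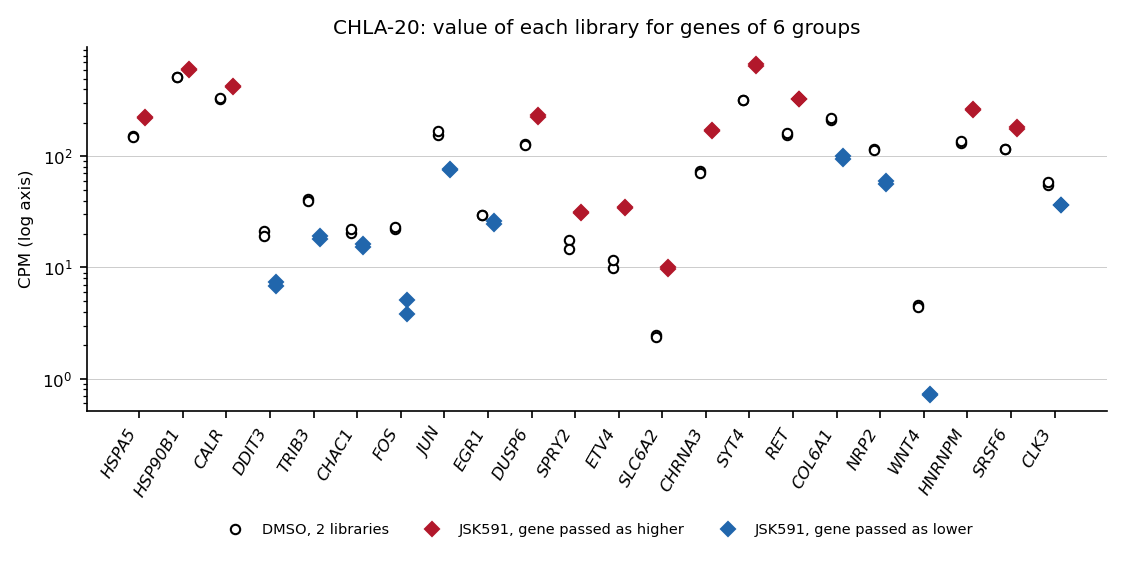
CPM of each CHLA-20 library on a log axis for 22 genes of the groups described in the text (ER chaperones, ATF4 targets, immediate-early genes, ERK feedback genes, sympathetic and surface genes, splicing genes); open circles are DMSO and diamonds JSK591, with no averaging. The replicates of each gene lie close together and apart from the other group, as for HSPA5 (from 152 and 148 to 223 and 225 CPM) and FOS (from 21.99 and 23.02 to 3.78 and 5.11 CPM).

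The gene of the inhibited enzyme itself did not pass: PRMT5 had 45.6 and 45.8 CPM with DMSO and 48.02 and 48.4 with JSK591 (0.08 ± 0.05, adjusted p = 0.233 by edgeR), and it passed only with the GC trend described below removed (0.12, adjusted p = 0.0311 by edgeR). Since the inhibitor acts on the protein, this level is no check of inhibition. Of 13 tested genes of the PRMT family and its complexes, 5 rose and 3 fell, with a median of 0.08; without DMSO replicate 1 or JSK591 replicate 1 the risen genes were 3, and without DMSO replicate 2 the fallen gene was 1. The shares of this list were 38.5% and 23.1%, against 16.9% and 22.4% of all genes. PRMT6, which makes asymmetric arginine marks on histone H3, rose from 34.5 and 33.2 to 49.9 and 48.02 CPM (0.53 ± 0.06). PRMT7, which makes monomethyl marks, rose from 29.7 and 28.3 to 34.2 and 36.2 CPM (0.28 ± 0.06), and MTAP, whose loss makes cells sensitive to PRMT5 inhibition, rose from 54.9 and 53.6 to 61.3 and 61.9 CPM (0.18 ± 0.05). PRMT1, the main asymmetric enzyme, fell from 333 and 328 to 284 and 287 CPM (-0.21 ± 0.04). The methyl donor of all these enzymes comes from the methionine cycle, in which 4 of 15 genes rose and 4 fell; without DMSO replicate 1 the risen genes were 2. The shares of this cycle were 26.7% each, against 19.8% and 28.4% of protein-coding genes. MAT2A, which makes S-adenosylmethionine, rose from 295 and 284 to 338 and 335 CPM (0.22 ± 0.04). AHCYL1, a relative of the enzyme that clears the product of methylation, fell from 171 and 169 to 135 and 138 CPM (-0.31 ± 0.04).

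Sm and LSm proteins form rings around spliceosomal RNAs, and PRMT5 methylates some of these proteins. Genes of the list named for them rose in 9 (37.5%) and fell in 6 (25.0%) of 24 cases. The median was 0.13, or 0.11 without DMSO replicate 2. SNRPD1 and SNRPD3, which encode methylated Sm proteins, rose from 63.4 and 62.7 to 76.9 and 77.4 CPM (0.29 ± 0.05) and from 93.9 and 95.7 to 106 and 109 CPM (0.18 ± 0.04). LSM5 rose from 42.2 and 42.4 to 51.1 and 56.02 CPM (0.34 ± 0.06), while SNRPA, a U1 protein, fell from 167 and 166 to 131 and 126 CPM (-0.38 ± 0.04). Of 10 genes of the SMN complex and its partners 5 rose and 1 fell, with a median of 0.12; without DMSO replicate 2 or JSK591 replicate 2 the risen genes were 2, and with no filter on low counts or with DESeq2 they were 3. The reported shares of the SMN complex were 50% and 10%. DDX20, its helicase, rose from 28.4 and 28 to 35.1 and 34.8 CPM (0.31 ± 0.06), and GEMIN8 fell from 14.6 and 15.5 to 10.4 and 11.7 CPM (-0.45 ± 0.09). In the minor spliceosome, which removes a small class of introns, 3 of 14 genes rose and 3 fell. These are 21.4% each, against 16.9% and 22.4% of all genes. SNRNP25 rose from 13.1 and 14.3 to 21.4 and 20.2 CPM (0.60 ± 0.08) and SNRNP48 fell from 30.3 and 31.6 to 23.8 and 25.4 CPM (-0.33 ± 0.06), both of them proteins of the U11/U12 particle.

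Splicing regulators moved in both directions. Of 24 SR proteins, SR-related proteins and their kinases, 13 rose, 54.2% against 16.9% of all genes and 27.5% in the highest class of level. The 8 that fell made 33.3%, against 22.4% and 36.2%, and the median of the list was 0.19. Without DMSO replicate 1 the fallen genes were 5. Among the risen genes were SR proteins that bind exonic enhancers: SRSF6 went from 116 and 115 to 177 and 182 CPM (0.63 ± 0.04), SRSF7 went from 154 and 151 to 215 and 220.1 CPM (0.51 ± 0.04) and SRSF3 went from 266 and 268 to 354 and 364 CPM (0.43 ± 0.04). SRSF1 rose too (0.73 ± 0.05), with 62.1% of its exonic bases shared with another gene. Kinases that phosphorylate SR proteins were among the fallen genes. CLK3 fell from 55.5 and 58.6 to 36.3 and 36.5 CPM (-0.65 ± 0.05), SRPK2 fell from 93.8 and 99.2 to 71.8 and 74.2 CPM (-0.40 ± 0.04) and CLK1 fell from 54.002 and 52.98 to 45.5 and 42.8 CPM (-0.28 ± 0.05). SRRM2, a scaffold of nuclear speckles, fell from 872 and 879 to 712 and 692 CPM (-0.32 ± 0.04).

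Of 47 hnRNP genes and tissue splicing regulators 20 rose (42.6%) and 10 fell (21.3%), with a median of 0.07, which was 0.13 without DMSO replicate 2. Beside HNRNPM, HNRNPU rose from 532 and 579.7 to 778 and 785 CPM (0.49 ± 0.04) and MBNL3, a muscleblind protein, rose from 27.4 and 26.4 to 50.996 and 55.8 CPM (0.99 ± 0.06). Its relative MBNL2 fell from 71.6 and 71.3 to 52.6 and 54.2 CPM (-0.42 ± 0.05). PTBP2, the neuronal polypyrimidine tract protein, rose from 33.4 and 31.6 to 40.98 and 41.2 CPM (0.34 ± 0.06), while PTBP3 fell from 42.02 and 41.3 to 32.7 and 34.02 CPM (-0.32 ± 0.05). SRRM3 and SRRM4, which promote neuronal microexons, both fell, SRRM3 from 71.6 and 77.7 to 57.6 and 57.4 CPM (-0.38 ± 0.05) and SRRM4 from 107 and 106 to 93.7 and 92.5 CPM (-0.19 ± 0.04). Counts per gene say nothing about which exons were used.

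Genes of ribosome biogenesis rose more often than they fell. Of 51 genes of ribosome biogenesis 25 rose (49.0%) and 10 fell (19.6%), with a median of 0.13; without DMSO replicate 2 the fallen genes were 5 and without JSK591 replicate 2 they were 6. UTP14A, a component of the small subunit processome, rose from 21.4 and 22.2 to 45.1 and 45.2 CPM (1.05 ± 0.06), and UBTF, the factor that opens ribosomal DNA to RNA polymerase I, rose from 118 and 121 to 161 and 155 CPM (0.40 ± 0.04). NOB1, the nuclease that finishes the small subunit RNA, fell from 51.01 and 54.8 to 37.9 and 36.99 CPM (-0.50 ± 0.05). Host genes of small nucleolar RNAs divided, with 11 of 28 higher (39.3%) and 9 lower (32.1%). SNHG3 rose from 96.8 and 100.2 to 145 and 148 CPM (0.57 ± 0.04) and SNHG4 rose from 15.98 and 15.8 to 25.8 and 28.4 CPM (0.77 ± 0.07), whereas SNHG1 fell from 262 and 254 to 192 and 186 CPM (-0.45 ± 0.04) and SNHG8 fell from 82.9 and 85.3 to 66.5 and 67.4 CPM (-0.33 ± 0.05). Their spliced RNAs and the small RNAs in their introns are separate products, and only the former were counted.

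**Figure D2:**
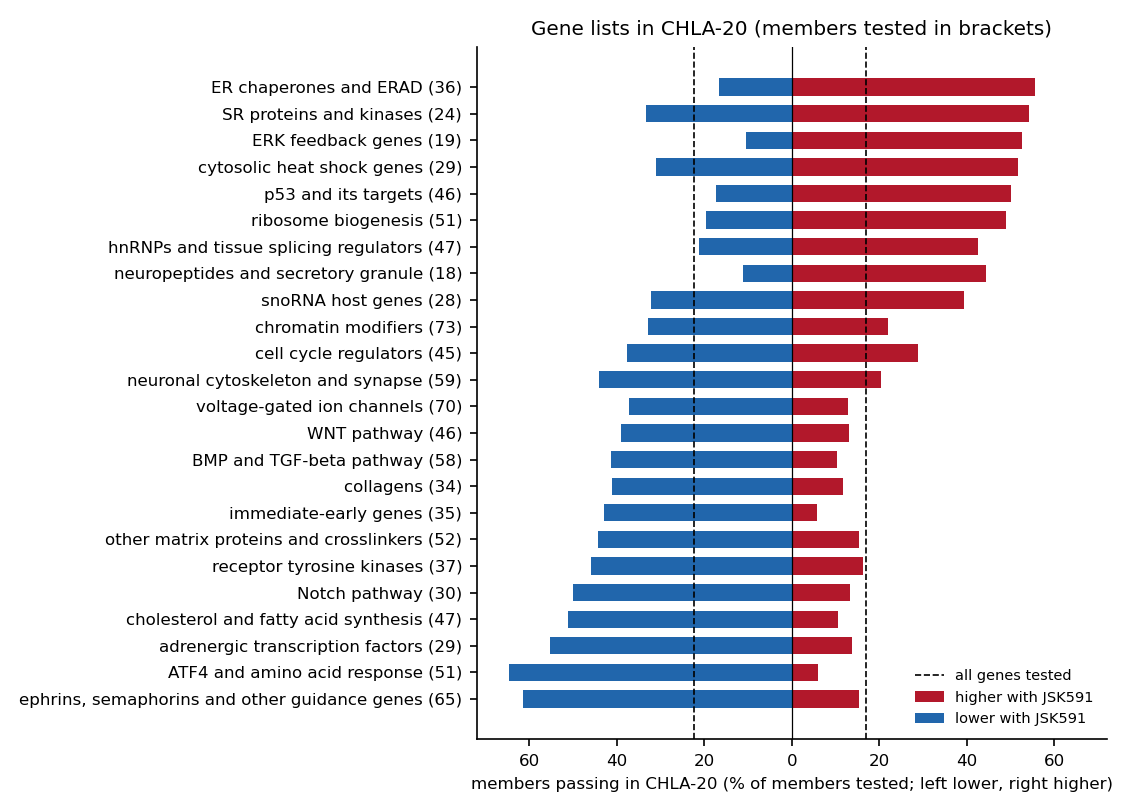
Share of tested members of 24 gene lists that rose (right, red) or fell (left, blue) in CHLA-20, with the number of members tested in brackets; dashed lines mark the shares among all genes tested, 16.9% higher and 22.4% lower. ER chaperones had the highest share of risen members (55.6%), and ATF4 genes (64.7%) and guidance genes (61.5%) the highest shares of fallen members among the lists drawn.

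Genes of protein stress went in opposite directions. Cells sense misfolded protein in the endoplasmic reticulum through PERK, IRE1 and ATF6: PERK leads to the factor ATF4, which drives amino acid genes, while ATF6 and the IRE1 product XBP1 drive chaperones. Of 51 ATF4 and amino acid response genes 3 rose (5.88%) and 33 fell (64.7%), with a median of -0.18. Of 36 genes of ER chaperones and ER-associated degradation 20 rose (55.6%) and 6 fell (16.7%), with a median of 0.13. Without DMSO replicate 1 the risen chaperone genes were 13.

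The promoters of 8 members are shown as examples that hold the element of one or the other factor, chosen after their changes were known: 4 chaperone genes that rose, ERO1B, which fell, XBP1, which did not pass, and HERPUD1 and CHAC1, which fell. Each line gives the 250 bases before the transcription start on the gene's strand, from RefSeq on GRCh38.p14, with every match in capitals. The ER stress response element, to which ATF6 binds together with NF-Y, was searched as CCAAT, 9 bases of any kind and CCACG (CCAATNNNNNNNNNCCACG). The element of ATF4 and its C/EBP partners was searched as TGATGNAA, both on both strands. The windows are HSPA5 chr9:125241344-125241593 on the minus strand, HSP90B1 chr12:103930160-103930409, CALR chr19:12938359-12938608, CRELD2 chr22:49918384-49918633, HERPUD1 chr16:56931892-56932141 and CHAC1 chr15:40953221-40953470, these 5 on the plus strand, and ERO1B chr1:236281959-236282208 and XBP1 chr22:28800570-28800819, both on the minus strand. HSPA5, HSP90B1, CALR, CRELD2, ERO1B and XBP1 hold the first element, and HERPUD1 and CHAC1 the second.
HSPA5: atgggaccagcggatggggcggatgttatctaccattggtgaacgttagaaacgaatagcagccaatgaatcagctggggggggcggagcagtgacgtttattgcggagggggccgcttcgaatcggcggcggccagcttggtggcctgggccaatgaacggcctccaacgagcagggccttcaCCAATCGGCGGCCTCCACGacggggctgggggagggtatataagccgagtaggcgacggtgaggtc
HSP90B1: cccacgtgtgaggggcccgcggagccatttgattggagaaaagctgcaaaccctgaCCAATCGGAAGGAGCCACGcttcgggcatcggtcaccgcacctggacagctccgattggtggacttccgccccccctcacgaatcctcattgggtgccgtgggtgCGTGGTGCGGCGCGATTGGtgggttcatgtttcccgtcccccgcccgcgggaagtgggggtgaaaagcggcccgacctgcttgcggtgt
CALR: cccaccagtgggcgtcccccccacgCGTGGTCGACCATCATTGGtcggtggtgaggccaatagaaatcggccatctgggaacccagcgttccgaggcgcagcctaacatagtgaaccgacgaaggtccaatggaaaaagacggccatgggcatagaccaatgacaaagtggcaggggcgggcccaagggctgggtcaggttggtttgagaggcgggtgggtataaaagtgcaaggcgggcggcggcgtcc
CRELD2: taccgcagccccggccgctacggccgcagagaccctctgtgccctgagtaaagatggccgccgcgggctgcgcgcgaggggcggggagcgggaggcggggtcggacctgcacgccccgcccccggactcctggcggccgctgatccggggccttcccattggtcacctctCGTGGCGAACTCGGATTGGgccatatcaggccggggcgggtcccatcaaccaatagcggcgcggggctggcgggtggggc
ERO1B: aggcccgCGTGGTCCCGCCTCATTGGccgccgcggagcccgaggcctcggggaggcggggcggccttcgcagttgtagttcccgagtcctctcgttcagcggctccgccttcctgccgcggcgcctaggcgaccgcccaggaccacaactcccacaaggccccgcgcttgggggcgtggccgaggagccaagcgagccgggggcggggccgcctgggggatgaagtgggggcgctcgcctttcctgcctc
XBP1: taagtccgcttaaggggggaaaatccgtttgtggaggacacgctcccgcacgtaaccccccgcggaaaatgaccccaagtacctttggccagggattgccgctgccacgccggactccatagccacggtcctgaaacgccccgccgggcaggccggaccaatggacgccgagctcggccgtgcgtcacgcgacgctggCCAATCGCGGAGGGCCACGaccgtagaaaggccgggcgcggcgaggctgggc
HERPUD1: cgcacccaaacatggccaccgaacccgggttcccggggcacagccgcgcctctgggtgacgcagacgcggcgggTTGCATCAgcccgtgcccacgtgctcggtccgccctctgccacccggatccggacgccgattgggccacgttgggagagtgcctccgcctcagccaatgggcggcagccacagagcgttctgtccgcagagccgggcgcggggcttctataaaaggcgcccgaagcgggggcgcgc
CHAC1: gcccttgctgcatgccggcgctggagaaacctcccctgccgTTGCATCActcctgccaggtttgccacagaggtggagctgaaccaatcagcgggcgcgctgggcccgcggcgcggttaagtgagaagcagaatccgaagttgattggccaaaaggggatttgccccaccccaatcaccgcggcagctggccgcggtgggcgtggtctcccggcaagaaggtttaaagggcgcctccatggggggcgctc

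In HSPA5 the match begins 66 bases before the start and reads along the gene, HSP90B1 has 2 matches on opposite strands beginning 194 and 89 bases before the start, and the matches of CALR and CRELD2 lie on the other strand, 225 and 80 bases before it. The match of ERO1B begins 243 bases before the start on the other strand and that of XBP1 52 bases before it along the gene. The ATF4 element of HERPUD1 begins 176 and that of CHAC1 209 bases before the start, both on the other strand. No printed window held a match to the other element as spelled above. Other forms of either element were not searched, so a window without a match may still hold one. Among 27305 genes with such windows, 0.0916% held the ER stress element and 3.89% the ATF4 element. Among the chaperone list, 33 of 36 members had a window and 8 of them (24.2%) held the ER stress element, while 1 (3.03%) held the ATF4 element. Among the ATF4 list, 41 of 51 members had one, 9 (22.0%) held the ATF4 element and 0 the ER stress element. A match is a description of letters, and no binding was measured.

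The 8 chaperone-list genes with the ER stress element in the searched form were CALR, CANX, CRELD2, ERO1B, HSP90B1, HSPA5, PDIA6 and XBP1. HSPA5, which encodes BiP, the chief chaperone of the ER, rose from 152 and 148 to 223 and 225 CPM (0.58 ± 0.04, adjusted p = 2.51e-19 by edgeR). HSP90B1, the ER form of HSP90, rose from 513 and 515 to 598 and 604 CPM (0.22 ± 0.04), and calreticulin's gene CALR rose from 330.5 and 337 to 427 and 423 CPM (0.35 ± 0.04). All treated libraries lay above all controls in these genes. CRELD2 (0.30 ± 0.08), CANX (0.16 ± 0.04) and PDIA6 (0.14 ± 0.04) also rose. Without DMSO replicate 1 CRELD2 (0.25, adjusted p = 0.0561 by edgeR) and PDIA6 (0.09, 0.214) did not pass, nor did they without JSK591 replicate 1 (0.24, 0.0713 and 0.12, 0.111). ERO1B, an oxidase that recharges disulfide isomerases, fell from 7.90 and 7.64 to 5.74 and 5.62 CPM (-0.45 ± 0.11), and XBP1, with 78.4 and 80.2 CPM with DMSO and 79.4 and 79.9 with JSK591 (0.01 ± 0.04), did not pass. Outside this group, MANF, a secreted ER protein, rose from 48.3 and 48.2 to 64.5 and 65.5 CPM (0.43 ± 0.05), and the stress sensor EIF2AK3, which encodes PERK, rose from 19.5 and 19.2 to 27.2 and 23.997 CPM (0.41 ± 0.07). The other sensor genes fell, ERN1 (IRE1) from 25.2 and 23.9 to 16.5 and 14.2 CPM (-0.68 ± 0.07) and ATF6 from 90.5 and 92.2 to 77.7 and 75.3 CPM (-0.26 ± 0.04). HERPUD1, a component of ER-associated degradation and the 1 list member with an ATF4 element, fell from 53.7 and 54.04 to 45.6 and 45.9 CPM (-0.24 ± 0.05).

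In the ATF4 list, DDIT3 (CHOP), a transcription factor of prolonged stress, fell from 21.2 and 19.3 to 6.78 and 7.37 CPM (-1.52 ± 0.08). TRIB3, a pseudokinase induced by CHOP, fell from 41.01 and 39.3 to 19.3 and 17.9 CPM (-1.11 ± 0.06), and CEBPB fell from 26.9 and 29.04 to 12.6 and 11.8 CPM (-1.20 ± 0.07). The treated libraries of these genes lay more than 2-fold under the controls. PCK2, the mitochondrial enzyme that makes phosphoenolpyruvate, fell from 84.2 and 83.4 to 46.2 and 47.3 CPM (-0.84 ± 0.05), PPP1R15A (GADD34), which reverses the PERK signal, fell from 43.9 and 43.7 to 27.7 and 28.2 CPM (-0.65 ± 0.06), and CHAC1, which degrades glutathione, fell from 20.3 and 22.04 to 16.2 and 15.3 CPM (-0.42 ± 0.08). ASNS, asparagine synthetase, fell as well (-0.71 ± 0.10), with 79.7% of its exonic bases shared. Of the 9 members with the ATF4 element in a promoter window, AARS (-0.43 ± 0.04), CEBPG (-0.41 ± 0.04), SLC1A5 (-0.35 ± 0.04), ASNS, CHAC1 and FGF21, the last at under 1 CPM, fell, and GARS (-0.04 ± 0.04), IARS (0.01 ± 0.04) and JDP2 (-0.15 ± 0.10) did not pass. Without DMSO replicate 2 FGF21 did not pass (adjusted p = 0.191 by edgeR), and without DMSO replicate 1 JDP2 passed as lower (-0.30, adjusted p = 0.0395 by edgeR). The risen members were WARS, a tRNA synthetase (0.37 ± 0.05), VLDLR, a lipoprotein receptor (0.37 ± 0.05), and SLC38A1, a glutamine carrier, which went from 527 and 527 to 656 and 669.9 CPM (0.33 ± 0.04).

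Cytosolic heat shock genes also divided, with 15 of 29 higher (51.7%), 9 lower (31.03%) and a median of 0.20. Among the risen genes were HSPA8, the constitutive HSP70, and partners of HSP70. HSPA8 went from 1529 and 1466 to 1895 and 1949 CPM (0.36 ± 0.04), its exchange factor HSPH1 went from 119.6 and 129 to 214 and 215 CPM (0.79 ± 0.04), and its cochaperones DNAJA1 and DNAJB1 went from 119.9 and 122 to 197 and 203 CPM (0.72 ± 0.04) and from 98.9 and 95.6 to 129.6 and 125 CPM (0.39 ± 0.04). The small heat shock gene HSPB1 fell from 220.4 and 226 to 164 and 168 CPM (-0.43 ± 0.04), and HSF2, a heat shock factor, fell from 62.7 and 60.7 to 49.03 and 52.5 CPM (-0.28 ± 0.05). HSPA1A and HSPA1B lie in the uncounted stretch around the MHC and are not reported.

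**Figure D3:**
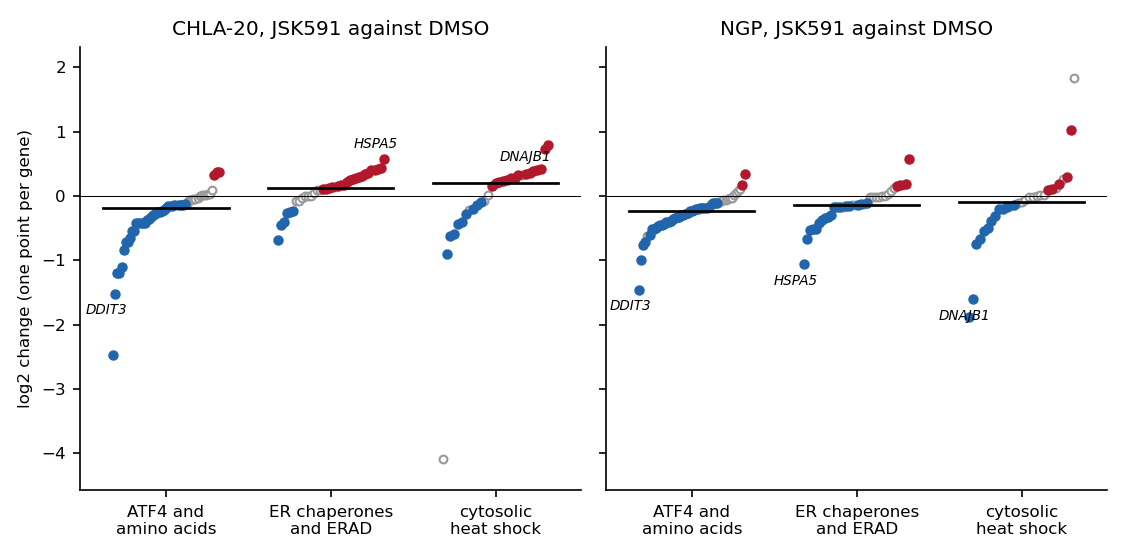
Log2 change of each tested member of 3 gene lists in CHLA-20 (left) and NGP (right), sorted within a list; red and blue points passed as higher and lower, open points did not pass, and the black line is the list's median. In CHLA-20 the ATF4 median is -0.18 and the chaperone median 0.13, with HSPA5 at 0.58, while in NGP HSPA5 is at -1.06.

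Immediate-early genes, which growth factors and stress switch on within minutes, fell more often than they rose: 15 of 35 fell (42.9%), 2 rose (5.71%) and 18 did not pass, with a median of -0.32. With the GC trend described below removed the risen genes were 4. FOS had the largest fall among genes of at least 5 CPM in either group, from 21.99 and 23.02 to 3.78 and 5.11 CPM (-2.34 ± 0.09), and its AP-1 partner JUN fell from 154 and 170.4 to 76.7 and 75.6 CPM (-1.09 ± 0.04). JUND, another AP-1 gene, fell from 505 and 549 to 375 and 359 CPM (-0.52 ± 0.04). EGR1 fell from 29.6 and 29.7 to 26.03 and 24.4 CPM (-0.23 ± 0.06), and ATF3 fell from 32.5 and 31.6 to 20.03 and 19.8 CPM (-0.69 ± 0.07). The risen pair was MCL1, a survival gene of the BCL2 family (0.18 ± 0.04), and KLF10 (0.20 ± 0.05).

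Genes that ERK signalling induces as its own brake did not follow the immediate-early genes. Of 19 such genes 10 rose (52.6%) and 2 fell (10.5%), with a median of 0.18; without JSK591 replicate 1 or with the GC trend removed the fallen gene was 1. DUSP6, the phosphatase that switches off ERK, rose from 128 and 127 to 227 and 235 CPM (0.86 ± 0.04), with 39.4% of its exonic bases shared. The Sprouty genes, inhibitors of receptor signalling, rose together: SPRY1 went from 5.50 and 4.59 to 11.3 and 10.4 CPM (1.11 ± 0.12), SPRY2 went from 17.7 and 14.8 to 31.2 and 31.8 CPM (0.96 ± 0.07) and SPRY4 went from 26.4 and 26.4 to 43.4 and 43.6 CPM (0.72 ± 0.06). All 3 PEA3 factors rose as well, ETV4 from 9.91 and 11.8 to 35.3 and 34.1 CPM (1.68 ± 0.08), ETV5 from 15.6 and 15.4 to 31.4 and 30.4 CPM (0.99 ± 0.07) and ETV1 from 376 and 370.2 to 482 and 491 CPM (0.38 ± 0.04). In each Sprouty and PEA3 gene both treated libraries exceeded both controls. ERK activity was not measured.

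The catecholamine pathway changed member by member, with 4 of 15 genes higher and 4 lower (26.7% each), or 2 higher with at least 10 counts in every library. TH, the first and rate-limiting enzyme, fell from 1352 and 1409 to 1099 and 1052 CPM (-0.36 ± 0.04). The enzymes after it rose, DDC from 98.5 and 98.5 to 121 and 121 CPM (0.30 ± 0.04) and DBH, which makes noradrenaline, from 45.95 and 47.6 to 66.7 and 66.1 CPM (0.51 ± 0.05). SLC6A2, the noradrenaline transporter that carries the radiotracer MIBG, had the largest rise among genes of at least 5 CPM, from 2.49 and 2.37 to 9.58 and 10.1 CPM (2.02 ± 0.12, adjusted p = 4.69e-22 by edgeR). MAOA, which degrades noradrenaline, fell from 45.6 and 44.2 to 33.4 and 33.2 CPM (-0.43 ± 0.06).

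Neuropeptides and secretory granule genes rose in 8 of 18 cases (44.4%) and fell in 2, with a median of 0.14. The fallen gene was 1 without DMSO replicate 1 or 2, JSK591 replicate 1, either NGP DMSO library or NGP JSK591 replicate 1, where low genes were kept, and where every library had to hold at least 10 counts. The median was 0.22 without DMSO replicate 2, 0.26 with the GC trend removed, and 0.21 under the stricter filter. NPY, a peptide released with noradrenaline, rose from 376 and 377 to 558 and 577 CPM (0.59 ± 0.04), and the granins SCG2 and CHGB rose from 337 and 334 to 443 and 453 CPM (0.42 ± 0.04) and from 161 and 169 to 208 and 207 CPM (0.33 ± 0.04). The galanin gene GAL rose from 146 and 141 to 177 and 171 CPM (0.28 ± 0.04) and PAM, which amidates peptides, rose from 103 and 105 to 129 and 132 CPM (0.33 ± 0.04). NTS, neurotensin, fell from 5.83 and 4.95 to 2.22 and 2.498 CPM (-1.19 ± 0.17).

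Transcription factors of the adrenergic state mostly fell, 16 of 29 (55.2%) against 4 that rose, with a median of -0.25. Without DMSO replicate 1 or JSK591 replicate 1 the risen gene was 1, and without JSK591 replicate 2 there were 2. The risen genes were 1 with no filter on low counts, 2 with DESeq2, and 7 with the CHLA-20 libraries alone or the GC trend removed. HAND2 fell from 766 and 806 to 546 and 529 CPM (-0.55 ± 0.04) and GATA3 fell from 444 and 449.8 to 351 and 346 CPM (-0.36 ± 0.04). PHOX2A (-0.36 ± 0.04), MEIS1 (-0.47 ± 0.04) and PBX3 (-0.55 ± 0.06) fell too. The factors named here all fell, while 4 of the 29 rose and 9 did not pass. MYC fell from 1393 and 1403 to 1039.96 and 1022 CPM (-0.44 ± 0.03).

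Of 37 receptor tyrosine kinases and coreceptors, 17 fell (45.9%) and 6 rose (16.2%), with a median of -0.24, which was -0.15 without JSK591 replicate 2 and -0.12 with the GC trend removed. RET, the receptor for GDNF family ligands, rose from 156 and 161 to 325 and 325 CPM (1.04 ± 0.04), and its coreceptor GFRA1 rose from 13.8 and 13.4 to 18.5 and 18.6 CPM (0.45 ± 0.07). ALK, a driver of neuroblastoma when mutated, rose from 63.8 and 61.9 to 69.99 and 70.7 CPM (0.16 ± 0.05). Among the fallen genes were NGFR, the p75 neurotrophin receptor, from 104 and 109.96 to 43.8 and 41.5 CPM (-1.33 ± 0.05), EGFR from 90.8 and 91.1 to 53.2 and 53.6 CPM (-0.77 ± 0.05), and at lower levels FGFR4 from 13.8 and 14.3 to 4.36 and 4.61 CPM (-1.65 ± 0.10) and KIT from 5.18 and 4.18 to 1.79 and 1.81 CPM (-1.38 ± 0.15).

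CHRNA5, CHRNA3 and CHRNB4 are neighbours on chromosome 15, at chr15:78565520-78595269, chr15:78593052-78621295 and chr15:78624119-78727754 on GRCh38. The spans of CHRNA5 and CHRNA3 overlap, and with an unknown strand setting counts from the overlap are less certain. The 3 genes encode subunits that join in the ganglionic nicotinic receptor. All 3 rose: beside CHRNA3, CHRNA5 went from 6.51 and 7.20 to 12.3 and 12.96 CPM (0.88 ± 0.10) and CHRNB4 went from 34.6 and 34.8 to 56.5 and 53.97 CPM (0.67 ± 0.05). CHRNB2, a subunit gene elsewhere, rose from 57.4 and 60.7 to 79.3 and 77.1 CPM (0.41 ± 0.05), and CHRNA4 fell from 4.05 and 4.03 to 1.53 and 1.25 CPM (-1.54 ± 0.20). Over the whole list of 60 neurotransmitter receptors 7 rose (11.7%) and 15 fell (25.0%), with a median of -0.24, or -0.15 with the CHLA-20 libraries alone and with at least 10 counts in every library. GRM8, a metabotropic glutamate receptor, fell from 52.2 and 51.3 to 30.996 and 28.6 CPM (-0.80 ± 0.06), and ADRA2C, an adrenoceptor that restrains noradrenaline release, fell from 9.02 and 10.4 to 4.10 and 3.60 CPM (-1.33 ± 0.12).

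Voltage-gated channels fell in 26 of 70 cases (37.1%) and rose in 9 (12.9%), with a median of -0.20; with the GC trend removed 14 rose. Sodium channel genes were among the risen ones: SCN3A went from 26.9 and 28.9 to 44.5 and 44.1 CPM (0.67 ± 0.06) and SCN2A went from 9.91 and 9.30 to 15.9 and 15.6 CPM (0.71 ± 0.09). CACNA1G, a T-type calcium channel, fell from 24.6 and 24.4 to 11.1 and 9.63 CPM (-1.24 ± 0.08), and KCNQ3, a subunit of the M current, fell from 16.8 and 16 to 9.73 and 8.39 CPM (-0.86 ± 0.09). Of 59 genes of the neuronal cytoskeleton and synapse 12 rose (20.3%) and 26 fell (44.1%), with a median of -0.09, or 17 and 21 with a median of -0.02 with the GC trend removed. Filament genes split, since NEFH rose from 150.5 and 155 to 204 and 205 CPM (0.42 ± 0.04) and NEFM rose (0.30 ± 0.04), while PRPH, peripherin, fell from 200.1 and 193 to 125 and 124 CPM (-0.66 ± 0.04). STMN2, which keeps axonal microtubules dynamic, fell from 1703 and 1685 to 1232 and 1213 CPM (-0.47 ± 0.03), and DLG4, the postsynaptic scaffold PSD-95, fell from 127 and 132 to 76.2 and 73.98 CPM (-0.78 ± 0.04).

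Enzymes of ganglioside GD2, the antigen targeted by antibodies in neuroblastoma, rose in 3 and fell in 5 of 17 cases; without DMSO replicate 2 the risen genes were 5, and without JSK591 replicate 2 or with no filter on low counts the fallen genes were 3. The reported shares were 17.65% and 29.4%, against 19.8% and 28.4% of protein-coding genes. B4GALNT1, which makes GD2 from GD3, had 69.7 and 68.2 CPM with DMSO and 66.96 and 66.9 with JSK591 (-0.04 ± 0.05) and did not pass. Of 17 oncofetal and imprinted genes 5 rose (29.4%) and 3 fell (17.65%). NNAT rose from 104 and 105 to 129 and 131 CPM (0.32 ± 0.04). DLK1 rose from 22.1 and 22.04 to 28.3 and 29.3 CPM (0.38 ± 0.06). HMGA1 fell from 733 and 754 to 618 and 605 CPM (-0.28 ± 0.04).

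Genes that guide axons had one of the highest shares of falls. Of 65 ephrins, semaphorins, slits, netrins and their receptors, 40 fell (61.5% against 22.4% of all genes) and 10 rose (15.4% against 16.9%), with a median of -0.29. SEMA5A fell from 42.05 and 39.6 to 15.6 and 14.9 CPM (-1.42 ± 0.07) and SEMA3A, a repellent of sympathetic axons, fell from 28.3 and 25.7 to 14.2 and 14.99 CPM (-0.89 ± 0.07). NRP2, a semaphorin receptor, fell from 116 and 114 to 56.3 and 59.5 CPM (-0.99 ± 0.04), while its relative NRP1 rose from 37.2 and 36.3 to 50.7 and 51.8 CPM (0.48 ± 0.05). SLIT1 fell from 102 and 110.2 to 66.2 and 62.95 CPM (-0.72 ± 0.05) and SLIT3 rose from 256 and 249 to 291 and 285 CPM (0.19 ± 0.04). EFNB2, a membrane-bound ligand of Eph receptors, rose from 19.2 and 19.1 to 40.9 and 41.6 CPM (1.11 ± 0.06), and PLXNB1, the receptor of SEMA4D, rose from 19.3 and 19.5 to 36.3 and 33.96 CPM (0.86 ± 0.07). Neuropilins and slits each had a member that rose and a member that fell.

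Adhesion genes were more even, with 14 of 48 cadherins and neuronal adhesion genes higher (29.2%), 16 lower (33.3%) and a median of -0.12, which was -0.01 without DMSO replicate 1, -0.07 without JSK591 replicate 1, -0.05 with the CHLA-20 libraries alone and -0.02 with the GC trend removed, and -0.01 where every library had to hold at least 10 counts. CDH11 rose from 18.97 and 19.4 to 28.1 and 32.3 CPM (0.65 ± 0.06), NCAM2 rose from 42.5 and 43.5 to 62.9 and 64.9 CPM (0.57 ± 0.05) and CNTN2, contactin 2, rose from 47.1 and 48.4 to 69.3 and 71.1 CPM (0.56 ± 0.05). MCAM, the melanoma cell adhesion molecule, fell from 181 and 179 to 119.7 and 119.7 CPM (-0.59 ± 0.04), and CHL1, a relative of L1, fell from 5.27 and 6.04 to 2.48 and 2.29 CPM (-1.24 ± 0.16).

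Matrix genes fell more often than they rose. Of 34 collagens 14 fell (41.2%) and 4 rose (11.8%), with a median of -0.19, which was -0.08 with the GC trend removed and -0.46 with at least 10 counts in every library, a filter that leaves 20 of them. The risen collagens were 2 with that filter or with DESeq2. COL6A2, the partner chain of COL6A1, fell from 165 and 176 to 105 and 99.5 CPM (-0.74 ± 0.04), and COL5A1 fell from 72.9 and 76.4 to 42.9 and 40.5 CPM (-0.84 ± 0.05). The chains of collagen I went apart, COL1A1 falling from 69.9 and 72.1 to 49.2 and 46.2 CPM (-0.57 ± 0.05) and COL1A2 rising from 8.67 and 6.46 to 11.7 and 11.6 CPM (0.62 ± 0.11). Of 52 other matrix proteins and crosslinkers 23 fell (44.2%) and 8 rose (15.4%), with a median of -0.21, or -0.13 without DMSO replicate 2. Without DMSO replicate 1 or with DESeq2 the risen genes were 4, and without either JSK591 library 5. HSPG2 (perlecan) fell from 37.9 and 38.7 to 20.1 and 19.9 CPM (-0.94 ± 0.06) and LAMA5 fell from 75.7 and 84.6 to 48.3 and 45.3 CPM (-0.78 ± 0.05), both of basement membranes, while RELN, reelin, rose from 14.8 and 15.7 to 22.02 and 22.7 CPM (0.55 ± 0.07). Among 18 integrins 4 rose (22.2%) and 6 fell (33.3%). ITGA1, of a collagen receptor, rose from 34.4 and 32.6 to 43.9 and 44.8 CPM (0.41 ± 0.06), and ITGA3, of a laminin receptor, fell from 13.996 and 14.7 to 6.96 and 7.91 CPM (-0.95 ± 0.10).

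In the Notch pathway 15 of 30 genes fell (50%) and 4 rose (13.3%), with a median of -0.18, or -0.05 with the GC trend removed. All 3 Fringe genes, which tune ligand choice by adding sugars to Notch, fell: RFNG from 47.6 and 50.1 to 35.1 and 32.6 CPM (-0.53 ± 0.06), LFNG from 10.98 and 11.7 to 8.17 and 7.999 CPM (-0.49 ± 0.10) and MFNG from 4.65 and 4.41 to 1.73 and 1.28 CPM (-1.58 ± 0.17). The receptors differed, as NOTCH3 fell from 15.4 and 15.2 to 10.6 and 8.74 CPM (-0.66 ± 0.10) and NOTCH1 rose from 25.1 and 24.2 to 32.5 and 29.3 CPM (0.33 ± 0.06). HES6, which opposes HES1, fell from 26.3 and 29.6 to 19.4 and 18.7 CPM (-0.55 ± 0.07), and HES1 itself rose from 0.829 and 0.978 to 1.73 and 1.93 CPM (1.02 ± 0.25) at about 1 to 2 CPM.

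Of 46 WNT pathway genes 18 fell (39.1%) and 6 rose (13.0%), with a median of -0.25, or -0.11 with the GC trend removed. The ligand WNT4 fell from 4.59 and 4.41 to 0.722 and 0.714 CPM (-2.64 ± 0.22) and WNT11 fell from 2.13 and 2.22 to 0.404 and 0.446 CPM (-2.35 ± 0.30). The Dickkopf genes, which encode secreted modulators of WNT signalling, went DKK1 from 10.03 and 10.7 to 20.2 and 19.5 CPM (0.94 ± 0.07), DKK2 from 40.4 and 41.6 to 70.4 and 66.6 CPM (0.74 ± 0.05) and DKK3 from 27.8 and 29.5 to 19.5 and 18.3 CPM (-0.60 ± 0.07). LGR5, the R-spondin receptor, rose from 198 and 202 to 288 and 293 CPM (0.54 ± 0.04). Of 58 genes of BMP and TGF-beta signalling 24 fell (41.4%) and 6 rose (10.3%), with a median of -0.17, or -0.06 with the GC trend removed, and 3 rose with DESeq2. The BMP target genes ID1 and ID2 fell from 87.8 and 90.7 to 53.02 and 48.3 CPM (-0.82 ± 0.05) and from 96.8 and 101 to 63.9 and 63.1 CPM (-0.64 ± 0.04). BAMBI, a decoy receptor, rose from 5.39 and 5.75 to 8.25 and 9.16 CPM (0.64 ± 0.11), and BMPR1B rose from 62.1 and 62.2 to 76.7 and 82.4 CPM (0.36 ± 0.05).

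Of 46 p53 targets and regulators 23 rose (50%) and 8 fell (17.4%), with a median of 0.18. MDM2, the ubiquitin ligase in feedback with p53, rose from 40.5 and 40.7 to 65.02 and 65.1 CPM (0.68 ± 0.05), CDKN1A (p21), the cell cycle inhibitor, rose from 106 and 104 to 167 and 167 CPM (0.67 ± 0.04), and EDA2R, a death receptor, rose from 7.01 and 7.44 to 17.5 and 16.7 CPM (1.24 ± 0.09). The pro-death gene BBC3 (PUMA) went the other way, from 20.7 and 24.5 to 13.7 and 12.3 CPM (-0.80 ± 0.08), as did CCNG1, from 134 and 131 to 106 and 110.02 CPM (-0.29 ± 0.04). In the BCL2 family, 4 of 15 genes rose and 3 fell; without JSK591 replicate 2 the risen genes were 2. The reported shares of this family were 26.7% and 20%. BAX rose from 50.7 and 56.5 to 76.05 and 71.2 CPM (0.46 ± 0.05), and BMF, which carries only the BH3 death domain, fell from 22.04 and 22.04 to 12.03 and 11.7 CPM (-0.89 ± 0.08).

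Cell cycle regulators did not move one way: 13 of 45 rose (28.9%) and 17 fell (37.8%), and the median lay between -0.06 and 0.02 over the 16 alternative analyses. Among cyclins of G1, CCND1 rose from 913 and 926 to 1304 and 1289.7 CPM (0.50 ± 0.03), CCNE1 rose from 11.7 and 10.1 to 16.4 and 16.3 CPM (0.58 ± 0.09) and CCNE2 rose (0.55 ± 0.13), the last with 47.6% of its exonic bases shared. Without JSK591 replicate 2 CCNE2 did not pass (0.38, adjusted p = 0.0671 by edgeR). CCND3 (0.11 ± 0.06) did not pass, other than with the GC trend removed (0.20, adjusted p = 0.00305 by edgeR), and CCND2 was too low to be tested. Inhibitors went both ways, since beside the rise of CDKN1A, CDKN1B (p27) fell from 211 and 223 to 172 and 169.5 CPM (-0.35 ± 0.04) and CDKN2D (p19) fell from 20.4 and 20.3 to 14.9 and 15.02 CPM (-0.44 ± 0.08). CDC25A, the phosphatase that opens S phase, rose from 52.2 and 50.7 to 66.7 and 65.2 CPM (0.36 ± 0.05), and CDC25C, which acts at mitosis, fell from 17.2 and 15.9 to 12.03 and 12.7 CPM (-0.42 ± 0.08).

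In metabolism, cholesterol and fatty acid genes fell in 24 of 47 cases (51.1%) and rose in 5 (10.6%), with a median of -0.13. The median was -0.08 without DMSO replicate 2 and -0.09 with the GC trend removed, when 21 fell and 9 rose, and 3 rose with no filter on low counts. INSIG1, the sterol sensor's anchor, fell from 165 and 176 to 119 and 118 CPM (-0.53 ± 0.04), FDFT1, which makes squalene, fell from 191 and 189 to 139 and 142 CPM (-0.43 ± 0.04), and FADS1, a fatty acid desaturase, fell from 322 and 310.4 to 234 and 237 CPM (-0.43 ± 0.04). SC5D, a late enzyme of cholesterol synthesis, rose from 50.9 and 49.7 to 58.6 and 62.2 CPM (0.26 ± 0.05), and the sterol carrier STARD4 rose from 43.3 and 43.2 to 56.7 and 59.9 CPM (0.43 ± 0.05). Of 18 polyamine genes 5 rose and 4 fell; the risen genes were 3 without DMSO replicate 1 or either JSK591 library and with DESeq2, and 8 with the GC trend removed. The reported shares of the polyamine list were 27.8% and 22.2%. AMD1, which commits S-adenosylmethionine to polyamines, rose from 93.5 and 92.8 to 108 and 110.3 CPM (0.23 ± 0.04), and SAT1, which starts their breakdown, fell from 8.49 and 9.13 to 4.96 and 5.20 CPM (-0.79 ± 0.11). Of 20 metallothionein and zinc transport genes 9 rose (45%) and 4 fell (20%). SLC30A1, the zinc exporter of the cell surface, rose from 16.6 and 16.7 to 23.7 and 24.4 CPM (0.53 ± 0.07). SLC39A13 fell from 37.8 and 40.7 to 26.4 and 25.5 CPM (-0.59 ± 0.06).

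Among 73 chromatin modifiers 16 rose (21.9%) and 24 fell (32.9%), and the median lay between -0.07 (without JSK591 replicate 1) and 0.01 (with the GC trend removed) over the 16 alternative analyses. HDAC9 fell from 273 and 273 to 176 and 181 CPM (-0.61 ± 0.04) and HDAC5 fell from 137 and 145 to 94.7 and 89.9 CPM (-0.61 ± 0.04), both class IIa deacetylases. UHRF1, which directs maintenance DNA methylation, rose from 53.8 and 61.1 to 82.7 and 79.8 CPM (0.50 ± 0.05), TET3, which oxidises methylcytosine, rose from 50.3 and 52.98 to 68.1 and 65.03 CPM (0.37 ± 0.05), and the de novo methyltransferase gene DNMT3B fell from 25.95 and 26.2 to 18.6 and 19.7 CPM (-0.44 ± 0.07). Of 21 microRNA host transcripts 3 rose and 7 fell; without JSK591 replicate 2 the fallen ones were 4, and without either NGP DMSO library or NGP JSK591 replicate 1 the risen ones were 5. The reported shares of these hosts were 14.3% and 33.3%. MIR100HG fell from 57.7 and 58.04 to 32.8 and 33.4 CPM (-0.81 ± 0.06), and MIR34AHG, host of a p53-induced microRNA, rose from 6.27 and 5.42 to 9.50 and 8.71 CPM (0.64 ± 0.11). Of 12 tested genes of MHC class I and antigen processing 0 rose and 4 fell. The fallen share was 33.3%, against 22.4% of all genes and 28.4% of protein-coding genes. Another 10 members were too low to be tested, among them HLA-B, HLA-C, HLA-E, HLA-F, HLA-G, TAP1 and TAP2. The counts therefore say little about MHC class I itself. PSME1, a proteasome activator subunit, fell from 48.3 and 47.5 to 37.3 and 39.8 CPM (-0.31 ± 0.05).

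GC-rich genes fell more often, GC content being that of the longest transcript of a gene. Among protein-coding genes in 5 classes of about equal size, 28.3% rose and 20.7% fell in the class of lowest GC (median 38.5%), and 9.62% rose and 41.6% fell in the class of highest GC (median 61.8%). NGP libraries showed the opposite order, with 13.97% and 22.3% higher and 30.2% and 17.3% lower in the same 2 classes. Exon number also went with the calls. Of single-exon genes 14.8% rose and 14.5% fell, and of genes with 16 to 30 exons 19.4% rose and 35.5% fell. Level moved with exon number, from a median of 4.31 to 35.6 CPM in these 2 classes. It also went with calls in both directions. In the lowest of 5 classes of level 6.09% of genes rose and 12.5% fell, and in the highest 27.5% rose and 36.2% fell. The part of level was not tested. GC content of a gene and of its library's fragments cannot be told apart in these counts, and the part of GC in the list results was not tested beyond removing the trend (an alternative chosen after seeing the data), which left the guidance list at 29 lower and 12 higher (median -0.22), the ATF4 list at 28 and 5 (-0.15), and the ER chaperone list at 6 and 18 (0.13).

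**Figure D4:**
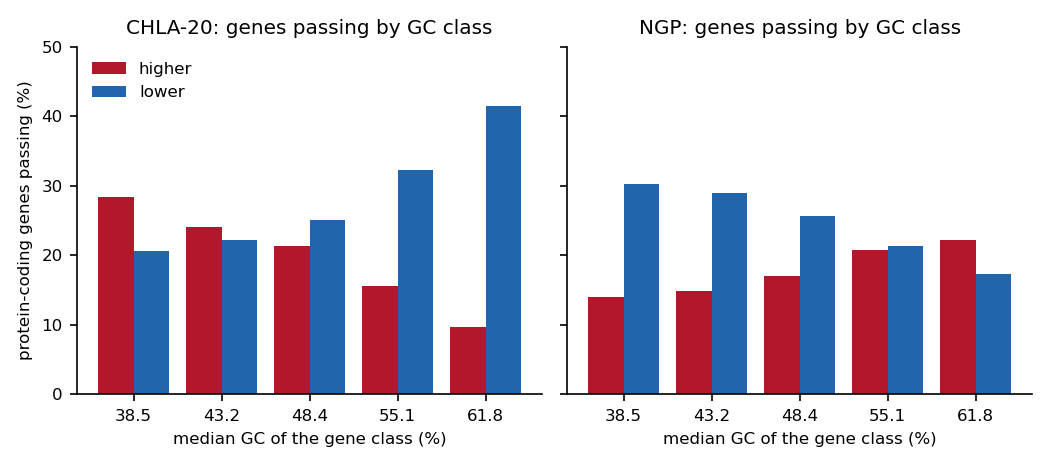
Share of protein-coding genes that rose (red) or fell (blue) in 5 classes of transcript GC content, labelled by their median, in CHLA-20 (left) and NGP (right). In CHLA-20 the fallen share goes up from 20.7% to 41.6% over the classes, while in NGP it goes down from 30.2% to 17.3%.

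Treatment of NGP with JSK591 gave 3266 higher (16.8%) and 3755 lower genes (19.4%), 36.2% in all. The change differed between the lines in 5368 genes (27.7%) by the interaction test in edgeR, 2418 (12.5%) with the more positive change in CHLA-20 and 2950 (15.2%) with the more negative. The lines share no control library. Of the CHLA-20 calls 48.2% also passed in NGP, which is 52.5% of the NGP calls, 2850 in the same and 834 in the opposite direction. All 834 also passed the test of the difference. Passing changes of opposite sign make that outcome nearly certain beforehand, so it adds no support.

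Chaperone genes changed differently in the 2 lines. HSPA5, higher in treated CHLA-20, fell in NGP from 404 and 382 to 184 and 193 CPM (-1.06 ± 0.04), a difference of 1.64 ± 0.05 (adjusted p = 1.42e-33 by edgeR). DNAJB1 fell in NGP from 263 and 263 to 84.7 and 88.1 CPM (-1.60 ± 0.04), a difference of 1.99 ± 0.06. Of the 36 genes of the ER list 4 rose and 18 fell in NGP, and the change of CALR differed by 0.77 ± 0.05. The ATF4 list fell in both lines, with 36 of 51 lower in NGP and 17 of 51 past the test of a difference, and DDIT3 (-1.45 ± 0.07 in NGP) did not pass the test of a difference (adjusted p = 0.729 by edgeR, difference -0.06 ± 0.11). CDKN1A rose in both lines by the same test without a difference that passed (-0.01 ± 0.05).

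**Figure D5:**
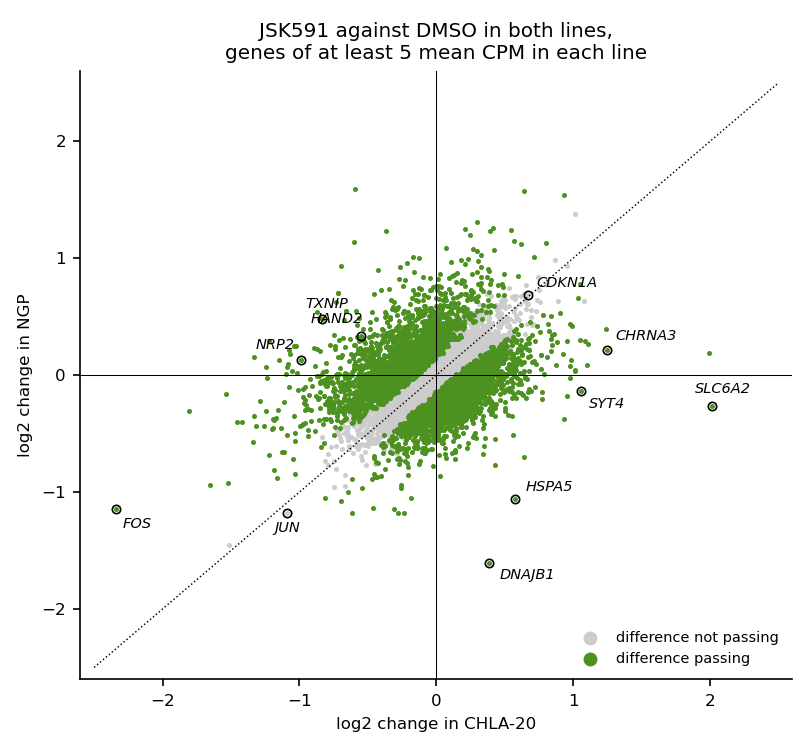
Log2 change in CHLA-20 against that in NGP for 10067 genes with a mean of at least 5 CPM in each line; green genes passed the test of the difference between lines, the dotted line marks equal change, and named genes are circled. HSPA5 and DNAJB1 are higher in CHLA-20 and lower in NGP, NRP2 and HAND2 are lower in CHLA-20 and higher in NGP, and JUN and CDKN1A moved alike in sign.

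Splicing and signalling brakes also stood apart. Of 24 SR genes 3 rose and 11 fell in NGP, against 16.8% and 19.4% of all genes, and 17 differed between the lines. SRSF3 differed by 0.70 ± 0.05 and SRSF6 by 0.61 ± 0.06. The Sprouty and PEA3 genes did not pass in NGP, and the difference passed for each of them, for example SPRY2 (1.14 ± 0.11) and ETV4 (1.41 ± 0.24). SYT4 and CHRNA3 had more positive changes in CHLA-20, by 1.19 ± 0.06 and 1.03 ± 0.06.

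Differences in the other direction were found in the sympathetic factor HAND2 and in guidance genes. HAND2 rose in NGP (0.34 ± 0.04), a difference of -0.89 ± 0.05. The adrenergic list it belongs to mostly fell in NGP too, with 16 of 29 lower, 8 higher and a median of -0.19. Of 65 guidance genes 20 rose and 6 fell in NGP, against 16.8% and 19.4% of all genes. The change differed between the lines in 41 of the 65, against 27.7% of all genes, and NRP2 differed by -1.12 ± 0.06. Of 34 collagens 7 rose and 3 fell in NGP, and 13 differed between the lines. Of 30 Notch genes 13 rose, 3 fell and 17 differed, and of 37 receptor kinases 14 rose, 8 fell and 20 differed. COL1A1, for example, rose in NGP from 539 and 556 to 656 and 618 CPM (0.22 ± 0.04), a difference of -0.79 ± 0.06, and MFNG differed by -2.01 ± 0.20. The opposite trends with GC content moved with these list differences, and their part was not tested.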

How the data were processed

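Gene counts of 8 messenger RNA libraries were used, 1 file per library. The authors deposited whole-number counts per gene, which per the submitters' processing notes were made with STAR and HTSeq on GRCh38 (hg38). Those notes also name DESeq2. Their versions, the gene models and whether counting used strand are not given in the sources used here. Libraries were prepared from total RNA by messenger RNA enrichment and sequenced on a DNBseq instrument, per the labels' protocols. Rows that name no gene were left out: reads outside genes made up 5.15% to 5.61% of the CHLA-20 reads, ambiguous ones 6.97% to 7.18% and those with several alignments 19.2% to 20.2%. Gene identifiers matched GENCODE release 29, which gave symbols, positions, the GC content of the longest transcript and the share of exonic bases that a gene shares with others.

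The counts were tested with edgeR 4.0.16 (limma 3.58.1, R 4.3.3): filterByExpr kept 19395 genes, TMM scaled the libraries, and 1 quasi-likelihood model of 4 groups was fitted to all 8 libraries, with 4 residual degrees of freedom and a biological coefficient of variation of 2.76%. The effect of JSK591 within each line and the difference of these effects were tested, Benjamini-Hochberg adjusted over all genes, with a threshold of 0.05. The SE comes from the F value. Lists are described by counts and medians with no test. The limit given for a count of 0 covers counting error only. The test was tried on simulated counts first.

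The comparison and the gene lists were chosen with earlier results of these data known. Named genes are the 12 largest increases and decreases among genes of at least 5 CPM in a CHLA-20 group with separated libraries, the 8 largest of each among genes of at least 100 CPM, up to 3 of each per list, list members described for their role, and the 8 largest differences between lines in each direction among genes that also passed in CHLA-20 with at least 5 CPM in a group. From these the text gives a selection, and a few genes are not reported here. Alternatives were DESeq2 1.42.0, no filter, at least 10 counts in every library, DESeq2 size factors, total count scaling, the CHLA-20 libraries alone, a replicate block, each library left out, and, chosen after seeing the data, the trend of log2 change with GC content removed.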

Additional observations from a re-analysis of the deposited data

Results flagged for a closer look

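The JSK591 effect differed between CHLA-20 and NGP in 5368 genes by the interaction test in edgeR. Differences below are log2 changes in CHLA-20 minus those in NGP, each past the test's threshold. Those with the more positive change in CHLA-20 were SLC6A2, the noradrenaline transporter gene (2.28), DNAJB1, a cochaperone gene (1.99), HSPA5, which encodes BiP (1.64), SYT4 (1.19) and CHRNA3 (1.03). Those with the more negative change in CHLA-20 were the non-coding RNAs AC084018.1 (-2.19) and LINC00599 (-1.74), the matrix gene CILP2 (-1.84), the adhesion gene CHL1 (-1.78), YPEL1 (-1.68), TXNIP (-1.32), NRP2 (-1.12) and HAND2 (-0.89). Of the 8 largest differences in each direction among genes that also passed in CHLA-20 and had a mean of at least 5 CPM in a CHLA-20 group, 7 of the more positive and 3 of the more negative were in genes under 0.5 CPM in every NGP library, and they are given no fold. The lines were grown in different media, and whether their inhibitor concentrations matched is not stated.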

How the results depend on the processing

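Counts of passing genes stayed within 1.5 times the reported ones under each of the 16 alternatives, except genes at least 2-fold changed. Those were 109 higher and 173 lower with at least 10 counts required in every library, which tests 14520 genes, and 154 higher and 262 lower with the DESeq2 Wald test, for which the cause was not tested. Leaving out 1 of the 8 libraries at a time gave 2484 to 3804 higher genes, 3203 to 4314 lower genes, 240 to 364 genes at least 2-fold higher, 351 to 440 at least 2-fold lower and 4154 to 4882 with a difference between lines. Same-numbered replicates did not deviate together (correlations of -0.024 to 0.010), so they were not treated as paired. With a replicate block 3275 genes were higher, 4369 lower, 312 and 436 at least 2-fold, and 5397 differed between lines. Of the genes the text names with a value, 214 of the 218 that passed did so under every alternative that tested them, and no direction of a call reversed. Of 2064 list counts and medians under alternatives, 256 moved by more than 1.5 times (counts) or by more than the spread between libraries (medians). Most genes named with a value were chosen as passing in these same libraries, so their passing again under the alternatives adds no support. With 2 libraries a group, small changes of low genes are the least certain.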

Other observations

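Some gene families outside the lists were counted after their values had been seen, and they are described with no test. Among all protein-coding genes tested 19.8% rose and 28.4% fell in CHLA-20, and in the highest of 5 classes of level 27.5% and 36.2%. Proteasome subunits rose in 14 (41.2%) and fell in 2 (5.88%) of 34 cases in CHLA-20, with a median of 0.10. In NGP 5.88% were higher and 29.4% lower, against 17.8% and 24.7% of protein-coding genes. Zinc finger genes with a ZNF symbol, which are low in GC (median 43.0%), rose in 141 (29.8%) and fell in 67 (14.2%) of 473 cases. Of 22 tested HOX genes, which set position along the body axis, 1 rose (4.5%) and 10 fell (45.45%), at a median level of 1.19 CPM. Cytosolic ribosomal protein genes rose in 5 (6.67%) and fell in 26 (34.7%) of 75 cases with a median of only -0.06. Their median level was 484 CPM, and their fallen share is near that of the highest class of level. Mitochondrial ribosomal protein genes rose in 18 (23.4%) and fell in 16 (20.8%) of 77.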
